A study of Mus musculus with 3 samples.

Results

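Collagens are the main structural proteins of the heart's extracellular matrix, and each molecule is assembled from 3 chains, which come from 1 or more genes. All gene symbols of the form Col, number, a, number were taken from the deposited spatial transcriptome tables, and 44 symbols matched. Of these, 30 genes had 20 or more unique molecular identifiers (UMIs, the tags that count single captured transcripts) over the 3 sections and are described here, out of 32285 genes in the tables and 13883 genes with as many UMIs. They comprised 8 fibrillar chains, 8 basement membrane chains (the Col4 genes, Col15a1 and Col18a1) and 14 other chains. The 14 matching genes below the limit had 0 to 11 UMIs in all, and 4 of them, Col9a1, Col19a1, Col6a5 and Col10a1, had none.

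The tables come from Visium slides, in which a cryosection of heart lies on barcoded capture spots and every spot takes up polyadenylated transcripts from the tissue over it, usually several cells of different types. There was 1 section from 1 C57BL/6 mouse per condition, and mice of the study were 8 weeks old when supplied. The sham mouse received vehicle by gavage for 7 days and then an operation in which the needle was passed without ligation. The I/R mouse received the same vehicle for 7 days, then ligation of the left anterior descending coronary artery (LAD) for 30 min and recanalization for 24 h. The SBP mouse received Shexiang Baoxin Pill (SBP, labelled MUSKARDIA), a traditional Chinese medicine, for 7 days and then the same ligation and recanalization. Because there was 1 section per condition, no difference between conditions could be tested, values have no replicate error, and the condition, the mouse, the plane of the section and the library cannot be told apart. All intervals below are at the 95% level and cover counting error only.

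Without the spots in which under 200 genes were detected, 2234 sham, 2082 I/R and 1960 SBP spots remained, with 25118258, 30238530 and 21631280 UMIs. Mitochondrial transcripts took 44.3% to 48.6% of the UMIs. The 6 cardiomyocyte markers summed to 25864 counts per 1000000 UMIs (CPM) in sham, 19765 after I/R and 22499 with SBP, and every marker of the fibroblast, endothelial, smooth muscle, pericyte and macrophage lists was detected in each section. Spot barcodes name fixed places on a slide, so the 1207 to 1568 barcodes that pairs of sections share follow from the slide design. Genes with at least 100 UMIs in each section shifted as a whole, with median log2 ratios of 0.22 (I/R over sham), -0.14 (SBP over I/R) and 0.085 (SBP over sham), and ratios of collagen genes are given beside these shifts where they matter. In tissue sections, fewer cells of a type and less RNA per cell cannot be told apart.

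Fibrillar collagens (types I, III and V among them) form the banded fibrils that carry tension between muscle bundles, and fibroblasts are their chief source in the heart. Type IV collagen forms the sheet-like network of the basement membrane that wraps each cardiomyocyte and capillary, and types XV and XVIII sit in or beside this membrane. Chains of 1 collagen molecule wind around each other only where glycine recurs at a spacing of 3 residues, and breaks in that repeat make a chain flexible.

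The coding sequences of GENCODE M21 show this difference between the classes, independently of any expression value. With Col27a1 excepted, the longest unbroken run of glycine codons spaced 3 apart was 337 to 344 triplets in the fibrillar chains, 344 in Col3a1, 339 in Col1a2 and 338 in Col1a1. In Col27a1 it was 217 triplets. Among the basement membrane chains the longest run was 30 triplets in Col15a1 and Col18a1, 40 in Col4a1 and 66 in Col4a2. Col4a1 held 22 separate runs of at least 5 triplets and Col4a2 held 24, whereas Col1a1, Col1a2 and Col3a1 had 2 each.

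Several of these genes lie side by side in the genome (GRCm38, annotation GENCODE M21). Col4a1, the main chain of the type IV network, occupies chromosome 8 from 11198423 to 11312826 on the minus strand, and its partner Col4a2 occupies 11312805 to 11449287 on the plus strand. Their annotated 5′ ends overlap by 22 bases, which are shown because the pair is read in opposite directions from this stretch. Col4a4 (chromosome 1, 82448423 to 82586849, minus strand) and Col4a3 (82586921 to 82722059, plus strand) face away from each other across 71 bases, shown because Col4a4 was lower in I/R than in sham while Col4a1 and Col4a2 were higher. The upstream windows of Col3a1, the collagen gene with the most UMIs, and of Col8a1, the gene outside the basement membrane class with 200 or more UMIs that differed most between sham and I/R, are shown as the 250 bases before the start of each gene. No annotated exon overlaps these windows. Sequences are from RefSeq on GRCm38.p6, 5′ to 3′, the pairs on the plus strand and the upstream windows on the strand of the gene, and capitals mark TATAAA or GGGCGG on either strand (TTTATA and CCGCCC on the other).
Col4a1 and Col4a2, shared bases, chr8:11312805-11312826: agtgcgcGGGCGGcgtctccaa
Col4a4 and Col4a3, bases between, chr1:82586850-82586920: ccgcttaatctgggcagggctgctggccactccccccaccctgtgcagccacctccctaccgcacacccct
Col3a1, plus strand, chr1:45311288-45311537: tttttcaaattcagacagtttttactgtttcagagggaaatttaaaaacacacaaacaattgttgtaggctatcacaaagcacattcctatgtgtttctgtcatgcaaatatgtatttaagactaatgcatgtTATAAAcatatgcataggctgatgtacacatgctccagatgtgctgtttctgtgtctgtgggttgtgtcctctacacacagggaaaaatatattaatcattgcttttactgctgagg
Col8a1, minus strand, chr16:57754738-57754987: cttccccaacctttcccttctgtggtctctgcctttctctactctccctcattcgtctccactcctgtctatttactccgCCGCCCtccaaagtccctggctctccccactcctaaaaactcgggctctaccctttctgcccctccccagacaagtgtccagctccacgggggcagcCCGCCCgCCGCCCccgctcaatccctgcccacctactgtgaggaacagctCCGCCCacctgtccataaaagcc
The Col3a1 window had a GC content of 35.2% and held TATAAA 117 bases before the start, with no GGGCGG. The Col8a1 window had a GC content of 60.8% and held GGGCGG in reverse 4 times, 170, 73, 66 and 23 bases before the start. Of 32851 upstream windows of this length in the table, 12.4% held TATAAA, 33.8% CCAAT and 32.7% GGGCGG on either strand. Of the 26 windows that matched 24 of the 30 collagen genes, 3 held TATAAA, 8 CCAAT and 17 GGGCGG. A match of letters is a description and not a binding site.

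Collagen chains took 0.139% of all UMIs in sham, 0.159% after I/R and 0.116% with SBP. Fibrillar chains were the most abundant class in each section, at 755 CPM in sham, 801 after I/R and 521 with SBP. Basement membrane chains were at 406 CPM in sham, 566 after I/R and 447 with SBP, and the 14 other chains were at 228, 225 and 190.1 CPM. SBP was thus the lowest section for fibrillar and other chains, and I/R the highest for basement membrane chains. The log2 ratio of I/R over sham was 0.48 for basement membrane chains (interval 0.44 to 0.52) and 0.085 for fibrillar chains (0.058 to 0.11). The fibrillar value is below the median shift of all genes, and its sign turned to -0.13 with TMM factors, -0.15 with median-of-ratios factors and -0.030 when mitochondrial UMIs were left out. For SBP over I/R the log2 ratio was -0.62 for fibrillar (-0.65 to -0.59), -0.34 for basement membrane (-0.38 to -0.30) and -0.25 for other chains (-0.30 to -0.19). For SBP over sham it was -0.54 for fibrillar (-0.57 to -0.50), 0.14 for basement membrane (0.10 to 0.18) and -0.26 for other chains (-0.32 to -0.21). The basement membrane value stands beside a median shift of 0.085 of all genes, and was 0.068 with TMM factors. Of the 8 basement membrane chains, 4 were above 0 in this comparison, with a median of -0.031.

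The balance between the classes does not depend on how sections are scaled. Fibrillar UMIs outnumbered basement membrane UMIs by 1.86 in sham (1.82 to 1.91), 1.41 after I/R (1.39 to 1.44) and 1.16 with SBP (1.13 to 1.2). Of all collagen UMIs, fibrillar chains took 54.4%, 50.3% and 45.0%, and basement membrane chains 29.2%, 35.6% and 38.6%, in the order sham, I/R, SBP. Both sections with ligation therefore had a smaller fibrillar share than sham, and the intervals of the 3 ratios did not overlap. Marker sums of the cells that could hold these transcripts also differed between the sections. The 9 fibroblast markers summed to 1359.9 CPM in sham, 1002 after I/R and 1331 with SBP, the 9 endothelial markers to 1024, 1038 and 976, the 6 smooth muscle markers to 423, 329 and 219, the 7 pericyte markers to 455, 345 and 419, and the 7 macrophage markers to 693, 1222 and 742. Gsn alone gave 823, 534 and 864 CPM of the fibroblast sum. Without it the other 8 fibroblast markers summed to 537, 468 and 467 CPM, of which Dcn gave 283, 221 and 239. Of the 9 fibroblast markers, 4 were above 0 for I/R over sham, and the median log2 ratio of the 9 was -0.35. The lower fibroblast sum after I/R was therefore not shared by all markers of the list. The sums of the other lists also leaned on 1 gene each. Acta2 gave 254, 168 and 83.0 CPM of the smooth muscle sum, and Lyz2 283, 695 and 346 of the macrophage sum. Fabp4 gave 546, 494 and 487 CPM of the endothelial sum, and Rgs5 233, 153 and 197 of the pericyte sum. For I/R over sham, Acta2 was at -0.60 on the log2 scale, but 3 of the 6 smooth muscle markers were above 0. The part of these differences in the collagen values was not tested.

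**Figure D1:**
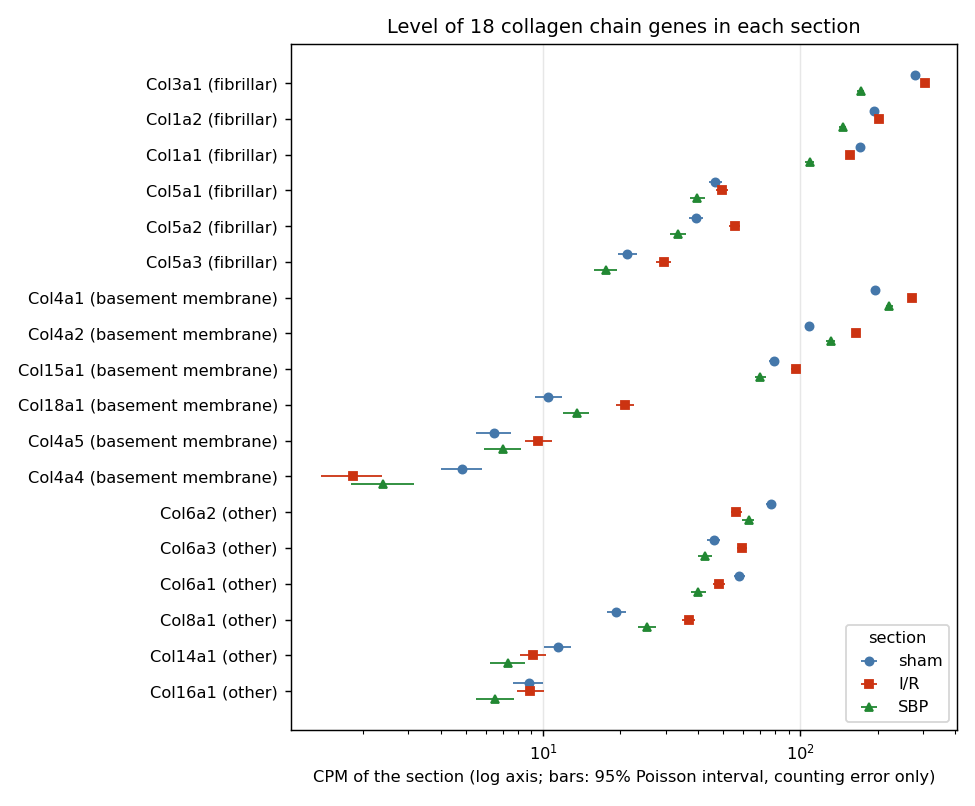
Level of the 18 collagen chain genes with 200 or more UMIs, as CPM on a log axis, with 1 marker per section and bars for the 95% Poisson interval. Col3a1 ranged from 172 CPM in SBP to 304 in I/R and Col4a1 from 195 in sham to 272 in I/R, while Col4a4 was at 1.82 to 4.86.

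Type I collagen, the stiff fibril of scar and tendon, is built from Col1a1 and Col1a2. Col1a1 was at 171 CPM in sham, 156 after I/R and 109 with SBP. Col1a2 was at 194 CPM in sham, 203 after I/R and 146 with SBP. The SBP section was the lowest for both, and the intervals of its levels did not overlap those of the other sections. For SBP over sham the log2 ratio was -0.65 for Col1a1 (-0.72 to -0.58) and -0.41 for Col1a2 (-0.48 to -0.35). For I/R over sham it was -0.13 for Col1a1 and 0.062 for Col1a2, values whose sign turned under equal weight for each spot (0.023, Col1a1) or TMM factors (-0.16, Col1a2). Per molecule of type I collagen 2 products of Col1a1 join 1 of Col1a2, yet in UMIs Col1a2 exceeded Col1a1 by 1.14 in sham, 1.3 after I/R and 1.34 with SBP. UMIs of 2 genes depend on how well each 3′ end is captured, so the level of this ratio says nothing of protein, and only its change between sections is comparable.

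Col3a1, the chain of type III collagen in the fine, extensible fibrils around muscle fibres, was at 280.0 CPM in sham, 304 after I/R and 172 with SBP. Its log2 ratio for SBP over I/R was -0.83 (-0.88 to -0.77), the lowest of the 18 chains with 200 or more UMIs, and for SBP over sham -0.71 (-0.77 to -0.65). For I/R over sham it was 0.12, and -0.10 with TMM factors. Within a section, Col3a1 exceeded Col1a1 by 1.64 in sham (1.58 to 1.71), 1.96 after I/R (1.89 to 2.03) and 1.58 with SBP (1.5 to 1.66). I/R was the section with the most Col3a1 for its Col1a1, and the sham and SBP intervals overlapped.

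Type V chains enter type I fibrils and limit their width. Col5a1 was at 46.8 CPM in sham, 49.7 after I/R and 39.8 with SBP. Col5a2 was at 39.2 CPM in sham, 55.5 after I/R and 33.5 with SBP, with log2 ratios of 0.50 for I/R over sham (0.39 to 0.62) and -0.73 for SBP over I/R (-0.86 to -0.60). Col5a3 was at 21.3 CPM in sham, 29.4 after I/R and 17.5 with SBP, with log2 ratios of 0.47 (0.31 to 0.62) and -0.75 (-0.92 to -0.57). Within type V, Col5a2 and Col5a3 were thus highest in I/R and lowest in SBP, and for Col5a1 the I/R over sham interval, -0.026 to 0.20, held 0. Col5a2 and Col3a1 lie tail to tail on chromosome 1 with 24614 bases between them, and Col5a2 per Col3a1 went from 0.140 in sham to 0.182 after I/R and 0.195 with SBP. The other fibrillar members, Col27a1 and Col11a2, had 198 and 32 UMIs in all, and only the SBP over sham interval of Col11a2 (0.15 to 3.53, from 5 and 14 UMIs) left out 0.

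**Figure D2:**
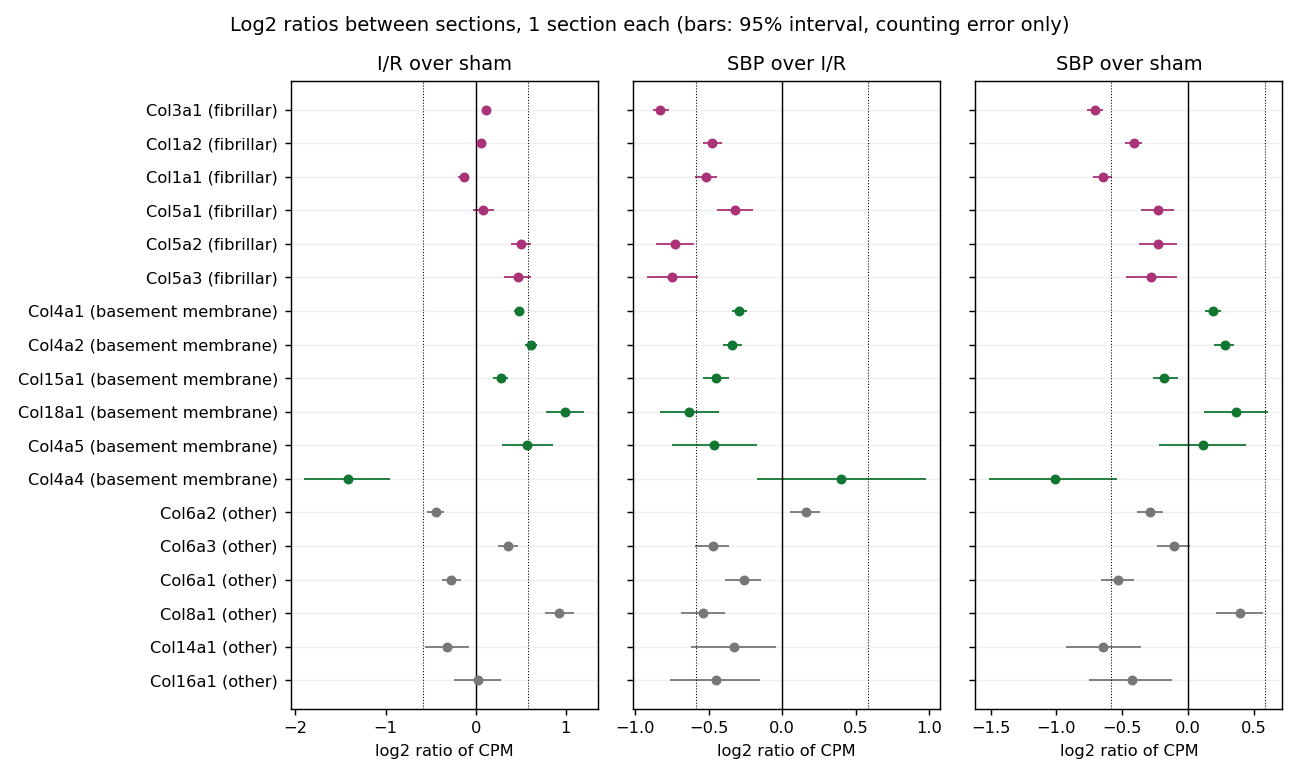
Log2 ratios of CPM between sections for the 18 chains with 200 or more UMIs, with 95% counting intervals and dotted lines at 1.5-fold. Fibrillar chains are purple, basement membrane chains green and other chains grey. For SBP over I/R all 6 fibrillar chains lie below 0, and for I/R over sham Col18a1 and Col8a1 lie farthest right and Col4a4 farthest left.

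Among basement membrane genes, Col4a1 was at 195 CPM in sham, 272 after I/R and 222 with SBP. Col4a2 was at 108 CPM in sham, 165 after I/R and 131 with SBP. I/R was highest and sham lowest for both, with no overlap of the intervals. The log2 ratio of I/R over sham was 0.48 for Col4a1 (0.43 to 0.53) and 0.61 for Col4a2 (0.55 to 0.68), and that of SBP over I/R was -0.29 (-0.34 to -0.24) and -0.34 (-0.40 to -0.27). The usual network molecule has 2 Col4a1 chains and 1 Col4a2 chain. The UMI ratio of these head-to-head genes was 1.81 in sham (1.72 to 1.89). It was 1.64 after I/R (1.58 to 1.70) and 1.70 with SBP (1.62 to 1.78). The sham and I/R intervals did not overlap, and the SBP interval overlapped both. Col4a5, a chain of the X chromosome that forms a further network, was at 6.45 CPM in sham, 9.59 after I/R and 6.98 with SBP, with a log2 ratio of 0.57 (0.29 to 0.86) for I/R over sham.

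Col4a4 and Col4a3 join Col4a5 in the network known from the kidney glomerulus. Col4a4 went the other way from Col4a1. It was at 4.86 CPM in sham, 1.82 after I/R and 2.40 with SBP, from 122, 55 and 52 UMIs. Its log2 ratio was -1.42 for I/R over sham (-1.90 to -0.95) and -1.01 for SBP over sham (-1.51 to -0.54). Col4a3 had 28, 18 and 17 UMIs, and its interval for I/R over sham reached from -1.85 to 0.000062. Col4a6 had 10, 8 and 4 UMIs, too few for a difference to be detectable at this depth.

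Col15a1, which links the basement membrane to nearby fibrils, was at 79.1 CPM in sham, 95.8 after I/R and 70.0 with SBP. Col18a1, the source of the fragment endostatin that restrains vessel growth, was at 10.5 CPM in sham, 20.9 after I/R and 13.5 with SBP. I/R was the highest section for both genes. For Col15a1 the log2 ratio of I/R over sham was 0.28 (0.19 to 0.36), near the median shift of 0.22 of all genes. It moved to 0.057 with TMM factors and 0.039 with median-of-ratios factors. Col18a1 had the highest log2 ratio of I/R over sham among the chains with 200 or more UMIs, 0.99 (0.78 to 1.2), followed by Col8a1, and its ratio of SBP over I/R was -0.63 (-0.83 to -0.43).

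Type VI collagen forms beaded filaments at the edge of the basement membrane, from the chains Col6a1, Col6a2 and a longer chain such as Col6a3. Col6a2 was at 76.8 CPM in sham, 56.4 after I/R and 62.9 with SBP. Col6a1 was at 58.0 CPM in sham, 48.2 after I/R and 40.1 with SBP. Col6a3 was at 46.1 CPM in sham, 59.2 after I/R and 42.7 with SBP. The 3 chains of 1 molecule thus differed in direction between sham and I/R, with log2 ratios of -0.44 for Col6a2 (-0.54 to -0.35), -0.27 for Col6a1 (-0.37 to -0.16) and 0.36 for Col6a3 (0.25 to 0.47). As a ratio within the section, which no scaling alters, Col6a3 per Col6a1 was 0.794 in sham (0.734 to 0.858), 1.23 after I/R (1.14 to 1.32) and 1.06 with SBP (0.968 to 1.17). Col6a1 and Col6a2 lie on the same strand of chromosome 10 with 85161 bases between them, whereas Col6a3 lies on chromosome 1. The 2 neighbours differed in direction for SBP over I/R, at 0.16 (0.052 to 0.26) for Col6a2 and -0.26 (-0.39 to -0.14) for Col6a1, beside -0.47 for Col6a3. Col6a2 per Col6a1 was 1.32 in sham (1.23 to 1.42), 1.17 after I/R (1.09 to 1.26) and 1.57 with SBP (1.44 to 1.71). Col6a6, another of the longer chains, had 91 UMIs in sham, 35 after I/R and 35 with SBP, with a log2 ratio of -1.65 (-2.25 to -1.07) for I/R over sham.

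Col8a1, a short-chain collagen of vessel walls and of remodelled tissue, was at 19.3 CPM in sham, 36.8 after I/R and 25.4 with SBP. Its log2 ratio was 0.93 for I/R over sham (0.77 to 1.09), -0.54 for SBP over I/R, with an interval of -0.69 to -0.39, and 0.39 for SBP over sham (0.21 to 0.57). Col14a1, which coats fibrils, was at 11.4 CPM in sham, 9.16 after I/R and 7.30 with SBP, and SBP over sham was at -0.65 (-0.93 to -0.36). Col12a1, a fibril-coating chain of stressed tissue, had 40 UMIs in sham, 97 after I/R and 15 with SBP, a log2 ratio of 1.01 (0.47 to 1.58) for I/R over sham and of -2.21 (-3.10 to -1.42) for SBP over I/R. Col16a1, with 8.80, 8.93 and 6.52 CPM, had an interval of -0.24 to 0.28 for I/R over sham. Its log2 ratio was -0.45 (-0.76 to -0.15) for SBP over I/R and -0.43 (-0.75 to -0.12) for SBP over sham. The remaining members, Col23a1, Col20a1, Col7a1, Col8a2, Col13a1 and Col26a1, had 23 to 52 UMIs in all, and each of their intervals held 0.

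Counted over the 30 members, 5 were 1.5-fold or more higher in I/R than in sham (Col4a2, Col12a1, Col18a1, Col8a1 and Col11a2), against 24.9% of the 13883 genes with 20 or more UMIs. As many as 5 members were 1.5-fold or more lower (Col4a4, Col4a3, Col8a2, Col6a6 and Col4a6), against 5.11% of all genes. Of these lower members only Col4a4 and Col6a6 had intervals that left out 0. Among the higher members the interval of Col11a2 held 0 (-0.47 to 2.95, from 5 and 13 UMIs). The share of members was 16.7% in each direction. With TMM factors 4 members were higher and 8 lower, against 15.3% and 10.6% of all genes. For SBP over I/R, 2 members were higher (Col8a2 and Col11a2, whose intervals held 0), against 3.67% of all genes, and 5 were lower (Col3a1, Col5a2, Col5a3, Col12a1 and Col18a1), against 16.5% of all genes, which is close to the members' share of 16.7%. With TMM factors 4 members were higher and 3 lower, against 6.00% and 11.5% of all genes. For SBP over sham, 1 member was higher, against 8.64%, and 7 were lower (Col3a1, Col4a4, Col12a1, Col6a6, Col1a1, Col14a1 and Col4a6), against 5.86%, and the interval of Col4a6 held 0. With TMM factors 1 was higher and 8 were lower, against 7.15% and 7.07% of all genes. The median log2 ratio of the members was 0.090 for I/R over sham, -0.32 for SBP over I/R and -0.21 for SBP over sham, beside 0.24, -0.17 and 0.080 for all genes. Of the 18 members with 200 or more UMIs, 3 were 1.5-fold or more higher in I/R than in sham, a share of 16.7% beside 21.3% of the 10394 genes with as many UMIs, and 1 was lower, a share of 5.56% beside 2.68%. In SBP over I/R 0 were higher, beside 1.28%, and 4 were lower, a share of 22.2% beside 11%. In SBP over sham 0 were higher, beside 4.48%, and 4 were lower (Col3a1, Col4a4, Col1a1 and Col14a1), a share of 22.2% beside 1.71%. The 3 comparisons share sections, so these counts are not independent of each other.

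Over the spots of a section, fibrillar transcripts were gathered in fewer spots than basement membrane transcripts. To compare spots at equal depth, each was thinned at random to 6500 UMIs, which kept 2102 sham, 1880 I/R and 1747 SBP spots and left out 132, 202 and 213 shallower ones. The 10% of spots richest in fibrillar chains held 39.8% of fibrillar UMIs in sham, 37.4% after I/R and 36.9% with SBP. The 10% richest in basement membrane chains held 25.5%, 27.7% and 28.4% of theirs. The richest single spot held 67 fibrillar UMIs of 6500 in sham, 118 after I/R and 47 with SBP, and 13, 24 and 25 basement membrane UMIs. At least 1 fibrillar UMI was found in 90.3% of sham spots, 90.8% of I/R spots and 81.8% of SBP spots (94.7%, 98.3% and 89.5% before thinning), and the basement membrane shares were 89.2%, 92.1% and 85.5% (95.1%, 98.6% and 93.7%). Spots hold several cells, so these shares count spots and not cells that make collagen.

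**Figure D3:**
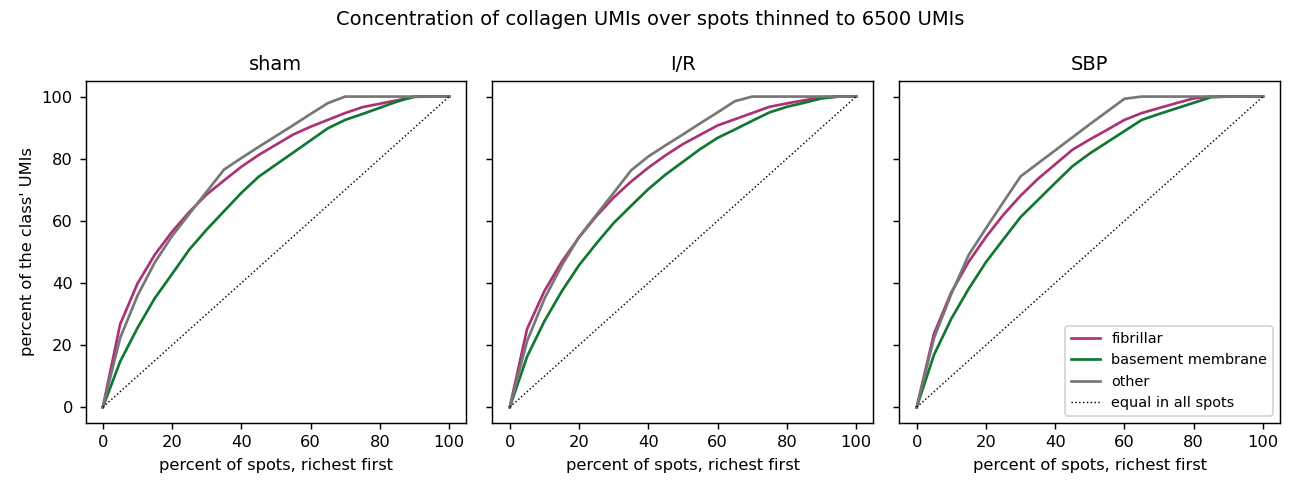
Percent of the UMIs of each collagen class held by the richest spots of that class, against the percent of spots, in spots thinned to 6500 UMIs, with other chains in grey and an even spread dotted. The fibrillar curve rises above the basement membrane curve in each of the 3 sections, at 39.8%, 37.4% and 36.9% against 25.5%, 27.7% and 28.4% for 10% of spots.

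Among single chains, the variance between spots beyond counting noise, divided by the squared mean (excess CV squared), was 1.9 for Col1a1 in sham, 2.1 after I/R and 1.2 with SBP. Among the 3958 to 4674 genes ranked, these values stood at percentiles of 97.8, 96.0 and 95.1. For Col4a1 the excess was 0.16, 0.37 and 0.31, at percentiles of 30.8, 52.6 and 55.2. Col1a1 was therefore among the most unevenly spread genes of each section, and Col4a1 was near the middle or below it. Col18a1 had an excess of 4.9 in sham, 10.1 after I/R and 19.8 with SBP, from 146, 241 and 138 thinned UMIs. Its richest single spot held 5, 9 and 11 of these UMIs, so the order of the sections leans on few spots. It ranked at percentile 99.8 in I/R and had too few UMIs to be ranked in sham and SBP. Col8a1 ranked at percentiles of 99.4, 96.1 and 98.0. Across thinned spots, Pearson's r between Col1a1 and Col1a2 was 0.64 in sham, 0.66 after I/R and 0.41 with SBP, whereas r between Col4a1 and Col4a2 was 0.11, 0.30 and 0.26 and r between Col6a1 and Col6a2 was 0.11, 0.13 and 0.16. Over the 15 pairs of fibrillar chains the median r was 0.36, 0.33 and 0.22, and over the 6 pairs of basement membrane chains it was 0.051, 0.19 and 0.17. Spots share a library and low counts lower r, so these values are descriptions over 1747 to 2102 spots.

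To see where each class lay, spots were called rich in a cell type when they held a number of its marker UMIs that at most 10% of the spots of their section reach, and the markers include no collagen gene. The limits in thinned UMIs (sham, I/R, SBP) were 18, 14 and 18 for fibroblast and 12 in each section for endothelial markers. They were 6, 5 and 4 for smooth muscle, 7, 6 and 6 for pericyte and 9, 21 and 11 for macrophage markers. Rich spots of different sections can therefore differ in marker content. Gsn gave 20680 of 34159 fibroblast marker UMIs in whole sections of sham, 16146 of 30311 in I/R and 18690 of 28798 in SBP. Spots were not redrawn without it, nor without Acta2, Lyz2, Fabp4 or Rgs5, which had the most UMIs of their lists. In fibroblast-rich spots, fibrillar chains were at 1278 CPM in sham, 1549 after I/R and 1071 with SBP, beside 700.3, 712 and 455 CPM in other spots. The log2 ratio was 0.87 (0.81 to 0.92), 1.12 (1.08 to 1.17) and 1.24 (1.17 to 1.3). Basement membrane chains had log2 ratios of 0.58, 0.11 and 0.41 in the same spots. In I/R, Col4a1 was lower in fibroblast-rich than in other spots, at -0.11 (-0.23 to -0.0042), and so was Col4a2, at -0.19 (-0.34 to -0.044). Col15a1 differed from them, with 1.09 (0.92 to 1.25) in sham, 0.74 (0.58 to 0.89) after I/R and 1.19 (1.01 to 1.38) with SBP. Col14a1, at 1.77, 1.5 and 2.33, and Col4a4, at 2.11 (1.53 to 2.67), 1.65 (0.66 to 2.56) and 2.37 (1.48 to 3.22), had the highest ratios in fibroblast-rich spots of each section among the 18 chains with 200 or more UMIs, the only ones computed.

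In endothelial-rich spots, basement membrane chains were at 484 CPM in sham, 899 after I/R and 521 with SBP, beside 399.6, 522 and 435 CPM elsewhere. The log2 ratio was 0.28 (0.17 to 0.38) in sham, 0.78 (0.72 to 0.85) after I/R and 0.26 (0.14 to 0.37) with SBP. I/R was the section in which they stood out most. Fibrillar chains had log2 ratios of 0.19, 0.28 and 0.11 in these spots.

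Both classes were also more abundant in spots rich in other markers. In macrophage-rich spots, basement membrane chains had log2 ratios of 0.49 (0.41 to 0.57) in sham, 0.92 (0.85 to 0.98) after I/R and 0.61 (0.52 to 0.70) with SBP, each above the value in endothelial-rich spots of the section. Fibrillar chains had 1.39 (1.34 to 1.44), 0.45 (0.39 to 0.51) and 0.95 (0.88 to 1.03) in macrophage-rich spots, which in sham is above the value in fibroblast-rich spots and in the other sections below it. In smooth muscle-rich spots fibrillar chains had 1.08 (1.02 to 1.13), 1.57 (1.52 to 1.62) and 0.87 (0.78 to 0.97), above the fibroblast-rich value in sham and I/R and below it in SBP. In pericyte-rich spots the log2 ratio was 0.19 to 0.30 for fibrillar and 0.11 to 0.16 for basement membrane chains. Spots rich in different markers can be the same spots, and the marker lists were not separated from each other.

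In smooth muscle-rich spots, Col18a1 was at 38.3 CPM in sham, 129.8 after I/R and 101 with SBP, beside 8.09, 12 and 7.29 CPM elsewhere. Its log2 ratio was 2.24 (1.83 to 2.64), 3.44 (3.20 to 3.68) and 3.79 (3.43 to 4.16), and these spots held 29.2%, 42.8% and 45.4% of its UMIs although they were 7.61%, 6.81% and 5.44% of spots. For the basement membrane class as a whole the log2 ratio in these spots was 0.50, 0.85 and 0.59. Col18a1 is also known as a product of vessel walls.

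**Figure D4:**
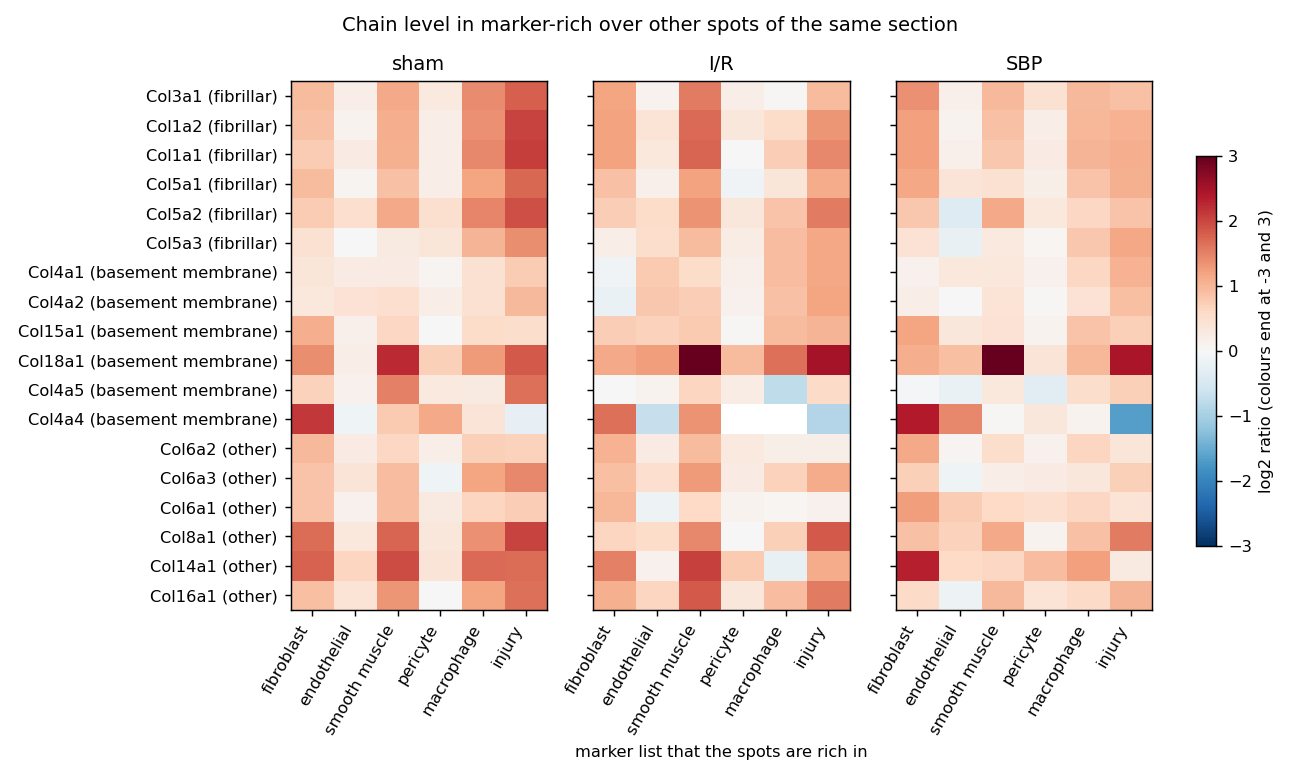
Log2 ratio of each chain between spots rich in a marker list and the other spots of the same section, as colour from -3 (blue) to 3 (red), with stronger values shown at the end colours and a blank cell where the rich spots held no UMI (Col4a4 in pericyte- and macrophage-rich spots of I/R). Col18a1 is darkest in smooth muscle-rich spots, at 2.24, 3.44 and 3.79, and Col4a4 is red in fibroblast-rich and blue in injury-rich spots. The blue cells of Col4a4 rest on 6, 11 and 3 UMIs, and their intervals hold 0 in sham and I/R.

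Injury-rich spots were drawn with 1 threshold for all sections, 7 or more thinned UMIs of 10 genes of injured and remodelled tissue (Timp1, Spp1, Lgals3, Ccn2, Tgfbi and Tnc among them), a number that at most 5% of sham spots reach. They were 4.85% of spots in sham, 32.1% after I/R and 15.1% with SBP. Both classes were more abundant in them in each section. Basement membrane chains were at 685 CPM in injury-rich and 388 in other spots of sham, at 893 and 397 after I/R and at 754 and 379.7 with SBP. Outside injury-rich spots the levels of the sections were close. The log2 ratio there was 0.033 (-0.011 to 0.077) for I/R over sham, beside 0.48 for the whole sections. For SBP over I/R it was -0.066 (-0.11 to -0.019), beside -0.34. The outside spots are what remains after the threshold takes 4.85%, 32.1% and 15.1% of spots, so they are unlike sets. A difference between conditions cannot be read from them. This closeness also depends on how the spots are drawn. When Ankrd1, a stretch-response gene of cardiomyocytes, replaced the 10 genes, the values outside were 0.33 and -0.34, and with the list without Ccn2, Tgfbi and Tnc they were 0.10 and -0.090. The log2 ratio of injury-rich over other spots was 0.82 (0.72 to 0.92) in sham, 1.17 (1.12 to 1.21) after I/R and 0.99 (0.92 to 1.06) with SBP.

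Fibrillar chains were at 2469 CPM in injury-rich and 654 in other spots of sham, at 1294 and 563 after I/R and at 894 and 449 with SBP. In both kinds of spots the order was sham, I/R, SBP from high to low. The injury-rich spots are unlike sets, however, because the threshold set on sham takes 4.85% of sham, 32.1% of I/R and 15.1% of SBP spots. The spots outside are what remains, and are unlike sets as well. A difference between conditions cannot be read from the levels inside or outside. Outside injury-rich spots the log2 ratio of SBP over I/R was -0.33 (-0.37 to -0.28), and inside them -0.53 (-0.59 to -0.48). For I/R over sham the value outside was -0.22 (-0.25 to -0.18), and 0.061 when Ankrd1 drew the spots. The 102 such spots of sham, rich in the list without a ligation, held 18.8% of that section's fibrillar UMIs. Over whole sections the injury genes summed to 356 CPM in sham, 1542 after I/R and 669.5 with SBP. Col3a1 outside injury-rich spots was at 247 CPM in sham, 236 after I/R and 152 with SBP. Its SBP over I/R log2 ratio in these unlike sets was -0.63 (-0.70 to -0.56).

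Col18a1 and Col8a1, with the highest I/R over sham ratios of the 18 chains, also had the highest ratios of injury-rich over other spots in I/R. Col18a1 was at 44.5 CPM in injury-rich and 7.90 in other spots of I/R, a log2 ratio of 2.49 (2.23 to 2.77), and outside these spots its I/R over sham ratio was -0.21 (-0.52 to 0.090). Col8a1 was at 71.2 and 20.0 CPM, a log2 ratio of 1.83 (1.65 to 2.01), and 0.27 (0.067 to 0.48) for I/R over sham outside. In sham the log2 ratio of injury-rich over other spots was 1.83 (1.34 to 2.29) for Col18a1 and 2.02 (1.68 to 2.35) for Col8a1. Inside injury-rich spots I/R over sham was 0.45 (0.0097 to 0.92) for Col18a1 and 0.083 (-0.23 to 0.41) for Col8a1. Col6a3 had a log2 ratio of 1.11 (0.97 to 1.24) in injury-rich over other spots of I/R, while Col6a1 had 0.13 (-0.032 to 0.29) and Col6a2 0.18 (0.031 to 0.33). In sham these ratios were higher, at 1.45 for Col6a3, 0.74 for Col6a1 and 0.70 for Col6a2. Within injury-rich spots I/R over sham was -0.32 (-0.56 to -0.064) for Col6a3, -0.87 for Col6a1 and -0.99 for Col6a2. These inside ratios, like those of Col18a1 and Col8a1, set 4.85% of sham spots against 32.1% of I/R spots. The outside ratios compare the remaining spots, which are unlike sets too. Neither the inside nor the outside ratios give a difference between conditions. Outside injury-rich spots Col6a3 was at 41.9 CPM in sham and 42.8 in I/R, whereas Col6a2 was at 74.5 and 53.8. For Col4a4 the log2 ratio of injury-rich over other spots was -0.25 (-1.72 to 0.92) in sham and -0.87 (-1.97 to 0.11) after I/R. With SBP it was -1.66 (-3.98 to -0.027). The injury-rich spots held 6, 11 and 3 of its UMIs, and the intervals of sham and I/R held 0.

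**Figure D5:**
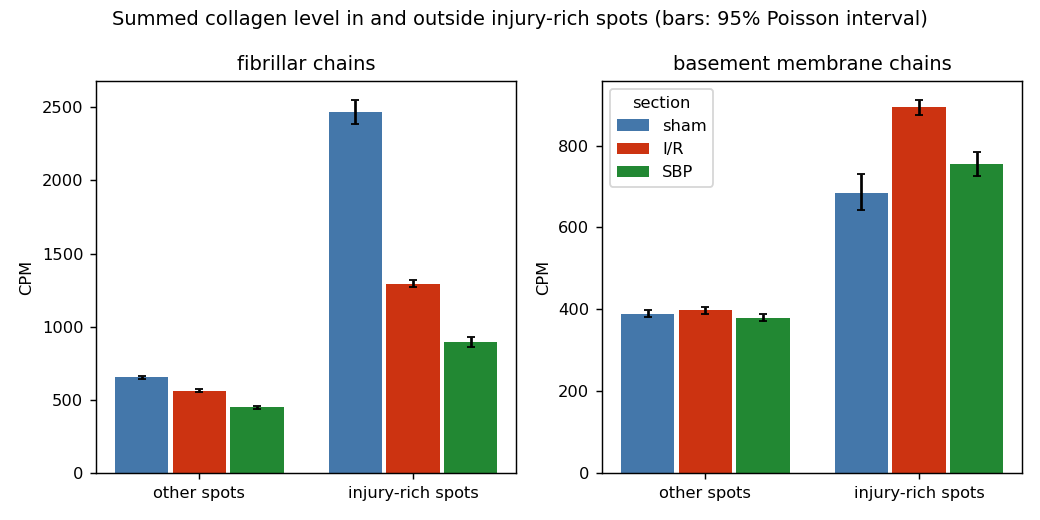
Summed CPM of fibrillar (left) and basement membrane chains (right) in injury-rich and other spots, with 1 bar per section from 0 and the 95% Poisson interval. Basement membrane bars of other spots stand at 388, 397 and 379.7 CPM, and fibrillar bars go down from sham to SBP in both kinds of spots. Injury-rich spots are 4.85% of sham, 32.1% of I/R and 15.1% of SBP spots, so both kinds of spots are unlike sets between sections.

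Collagen chains need a set of enzymes and chaperones in the endoplasmic reticulum before they can fold. The 20 genes of that set summed to 883 CPM in sham, 1292 after I/R and 1051 with SBP. Of the 19 with 200 or more UMIs, 7 were 1.5-fold or more higher in I/R than in sham and 0 lower, beside 21.3% and 2.68% of all genes with as many UMIs, with a median log2 ratio of 0.32 beside 0.24. For SBP over I/R, 0 were 1.5-fold higher and 0 lower, beside 1.28% and 11%, with a median of -0.27 beside -0.16. Serpinh1, the collagen chaperone HSP47 and the gene of the set with the most UMIs in I/R, was at 245 CPM in sham, 434 after I/R and 305 with SBP, with log2 ratios of 0.83 (0.78 to 0.87) and -0.51 (-0.55 to -0.46). Plod3, which hydroxylates and glycosylates lysines of type IV collagen above all, was at 19.1, 39.6 and 27.7 CPM and had the highest ratio of these 19 genes for I/R over sham, 1.05 (0.89 to 1.2), followed by the prolyl 3-hydroxylase P3h1 at 0.97 (0.73 to 1.21).

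Of the 9 genes with 200 or more UMIs that cleave or crosslink secreted collagen, 4 were 1.5-fold or more higher in I/R than in sham and 0 lower, and 3 were lower in SBP than in I/R, beside 21.3%, 2.68% and 11% of all genes with as many UMIs. Lox, the lysyl oxidase that starts crosslinks, was at 9.83 CPM in sham, 15.9 after I/R and 6.84 with SBP, and Loxl3 at 5.69, 12 and 5.04. The SBP over I/R log2 ratio was -1.22 (-1.5 to -0.95) for Lox and -1.25 (-1.57 to -0.94) for Loxl3. Tgm2, a transglutaminase, was at 97.8, 171 and 162 CPM, with -0.073 (-0.14 to -0.011) for SBP over I/R. Of the 6 collagen receptors with 200 or more UMIs, 1 was 1.5-fold or more higher in I/R than in sham, beside 21.3% of all genes with as many UMIs. It was Lair1 of leukocytes, at 3.11, 6.48 and 4.39 CPM. Of the 14 laminins and other partners of type IV collagen in the basement membrane, Lamb3 was 1.5-fold or more lower in I/R than in sham, at -0.77, beside 2.68% of all genes with as many UMIs. The median log2 ratio of the 14 was 0.060. The set thus had a lower median than the 0.52 of the 6 basement membrane collagens with as many UMIs. Sparc, which binds collagen IV, was at 384, 525 and 391 CPM, and Lamb2, a laminin of vessel and muscle membranes, at 166, 132 and 176.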

How the data were processed

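The deposited values are raw UMI counts for each gene in each spot, made with Space Ranger 1.3.0 and mm10 according to the submitters' processing notes. The study's methods give a different Space Ranger version and a human reference, but the tables list mouse genes. GENCODE M21 (GRCm38) holds 32235 of their identifiers and lacks 50.

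Levels (CPM) are summed counts of a gene per 1000000 UMIs of the same spots. The 95% intervals are exact, from the Poisson distribution (CPM), by Clopper-Pearson (shares) or from the conditional binomial distribution (ratios). Thinning was a hypergeometric draw to 6500 UMIs per spot, without spots of fewer UMIs. Correlations used chains with at least 1000 UMIs. Ratios and intervals were tested on simulated Poisson counts, the model that the intervals assume. That test therefore checks the code and not whether the model holds for transcripts spread unevenly over spots. Thinning was tested on sham spots of these data, at 3000 UMIs per spot. The members and lists were chosen with earlier results of these data known. Values in full were given for the 10 members with the most UMIs, basement membrane members with 200 or more UMIs, and, among members with 200 or more UMIs, the 3 highest and 3 lowest ratios in each comparison. From the partner lists, the 2 highest and 2 lowest ratios could be named. Col12a1, Col6a6, Col16a1, Col4a3, Col4a6, Col11a2, Col27a1 and Serpinh1 fall outside these rules and were chosen after their values were seen. Some genes of the lists, and the counts that rest on them alone, are not reported here. Glycine runs came from the longest coding sequence per gene.

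Alternatives were UMIs without mitochondrial genes, TMM factors (edgeR 4.0.16), size factors by the median of ratios, spots weighted equally, other filters on spots and genes, leaving out the richest spots or leading chain, other thinning, and other thresholds and genes for rich spots, of which the last were added after seeing the data. Spot positions were not used, and no clustering was run on spots. Python 3.11.15, numpy 2.4.6, scipy 1.17.1, pandas 2.3.3, matplotlib 3.10.9 and R 4.3.3 were used.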

Additional observations from a re-analysis of the deposited data

How the results depend on the processing

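No paired analysis was possible because there was a single section of each condition and no result came from a test. The depth limits the 12 members under 200 UMIs. No filter on spots, or spots with at least 1000 UMIs, moved no class ratio between sections beyond its counting interval. Leaving out the 1% of spots richest in a class moved none either. It did move the ratio of fibrillar over basement membrane UMIs within sections, given below. All log2 values below are ratios of class sums unless said otherwise, and the cause of a change was not tested beyond what each alternative removes or rescales.

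For I/R over sham, fibrillar chains (0.085) turned to -0.030 without mitochondrial UMIs, -0.13 with TMM factors and -0.15 with median-of-ratios factors, and moved to 0.21 with equal weight for each spot. Basement membrane chains (0.48) moved to 0.37, 0.26, 0.24 and 0.58 in that order of settings, and other chains (-0.019) to -0.13, -0.24, -0.26 and 0.070, or 0.16 without Col6a2. For SBP over I/R, fibrillar chains (-0.62) moved to -0.57, -0.47, -0.46 and -0.68, or -0.51 without Col3a1, and basement membrane chains (-0.34) to -0.29, -0.19, -0.18 and -0.40, or -0.39 without Col4a1. Other chains (-0.25) moved to -0.10 with TMM factors, -0.083 with median-of-ratios factors and -0.41 without Col6a2. For SBP over sham, fibrillar chains (-0.54) moved to -0.60, -0.61, -0.61 and -0.47, or -0.44 without Col3a1, and basement membrane chains (0.14) to 0.078, 0.068, 0.066 and 0.19, or 0.10 without Col4a1. Other chains (-0.26) moved to -0.33, -0.34 and -0.34 under the first 3 settings. Of the single chains, I/R over sham turned for Col3a1 (-0.10 with TMM and -0.12 with median-of-ratios factors), Col1a2 (-0.053 without mitochondrial UMIs, -0.16 and -0.17) and Col1a1 (0.023 with equal weight).

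Counts of members 1.5-fold apart moved with the scaling, as did those of all genes, given in parentheses. The count lower in I/R than in sham went from 5 (5.11%) to 8 with TMM (10.6%) or median-of-ratios factors (11.3%), which shift every gene by -0.22 and -0.24. For SBP over I/R the count higher went from 2 (3.67%) to 4 under both (6.00% and 6.33%), and the count lower from 5 (16.5%) to 3 with TMM (11.5%), 2 with median-of-ratios factors (11%) and 8 with equal weight (21.2%). For SBP over sham, the count higher went from 1 (8.64%) to 2 with equal weight (11.9%). With at least 200 UMIs the counts were 3 higher (21.3%) and 1 lower (2.68%) for I/R over sham, 0 higher (1.28%) for SBP over I/R, and 0 higher (4.48%) and 4 lower (1.71%) for SBP over sham.

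The log2 ratio of fibrillar over basement membrane UMIs (0.90 in sham, 0.50 in I/R, 0.22 in SBP) was 0.78, 0.39 and 0.15 without the 1% of spots richest in each class, 0.77, 0.40 and 0.12 with equal weight, and 1.17, 0.75 and 0.64 without the leading chains Col3a1 and Col4a1. The order of the sections was the same in each. The richest 5% of spots held 26.7%, 25.2% and 23.7% of fibrillar and 14.7%, 16.3% and 16.9% of basement membrane UMIs. Without thinning, the richest 10% held 45.7%, 40.7% and 41.5% of fibrillar UMIs, and 27.5% (sham) and 30.1% (SBP) of basement membrane UMIs. With thinning to 3000 UMIs the shares were 42.3%, 39.3% and 40.3%, and 31.1%, 30.9% and 32.5%.

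With 5% of spots called rich in place of 10%, or 2.5% of sham spots in place of 5% for the injury list, the fibrillar ratio in fibroblast-rich spots was 0.96, 1.36 and 1.39, the basement membrane ratio in endothelial-rich spots of I/R was 0.95, and in injury-rich spots the ratio was 1.08 for fibrillar chains in I/R and 1.11 for basement membrane chains in SBP. Without thinning, the fibrillar ratio in fibroblast-rich spots was 1.18 in sham and 1.24 in I/R, that of fibrillar chains in injury-rich spots 1.33 in I/R and 1.15 in SBP, and that of basement membrane chains in endothelial-rich spots 0.43, 0.67 and 0.59. With Ankrd1 drawing the injured spots, added after seeing the data, fibrillar ratios were 1.47, 0.58 and 0.45 and basement membrane ratios 0.52, 0.59 and 0.81. Without Ccn2, Tgfbi and Tnc, also added, fibrillar ratios were 1.75, 1.11 and 1.07.

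Outside injury-rich spots, fibrillar I/R over sham (-0.22) was -0.14 with the lower share of spots, -0.35 without thinning and -0.15 without the 3 genes, and it turned to 0.061 with Ankrd1. Fibrillar SBP over I/R (-0.33) was -0.39, -0.21, -0.41 and -0.53 in that order, and SBP over sham (-0.54) was -0.47 with Ankrd1. Basement membrane I/R over sham (0.033) was 0.13, -0.041, 0.10 and 0.33. Basement membrane SBP over I/R (-0.066) turned to 0.034 without thinning and was -0.34 with Ankrd1, and SBP over sham (-0.033) was 0.045 with the lower share of spots.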
